A study of Mus musculus with 2 samples.

Results

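Activated tumour-type neutrophils were examined in 2 single-cell RNA libraries of leukocytes from irradiated, tumour-bearing mouse lungs. A cell entered the neutrophil gate when at least 4 of 9 neutrophil genes (S100a8, S100a9, Csf3r, Cxcr2, Retnlg, Il1r2, G0s2, Mmp9, Hdc) were detected, that is had a value above 0, and Csf1r, Cd3e, Cd79a and C1qb were not. A gate cell was called activated when at least 2 of 6 further genes (Ccl3, Ccl4, Il1a, Tnf, Siglecf, Ccrl2) were detected. The rule found 611 activated neutrophils of 11905 cells in all, 418 of 6203 in the DT library and 193 of 5702 in the PBS library. The gate held 1618 cells, 1029 in DT and 589 in PBS, so that 611 DT cells and 396 PBS cells formed the other neutrophils.

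HKP1, a mouse lung cancer line, was given to Scgb1a1cre /iDTR mice through the tail vein, at 150000 cells in 100 µL. In these mice an Scgb1a1-driven Cre, switched on by tamoxifen, turns on a diphtheria toxin receptor, so that toxin kills club cells, the secretory airway cells that make Scgb1a1. The DT group was given diphtheria toxin (600 ng per 20 g of body weight, 2 doses, days 8 and 9) and the PBS group PBS as its control. Both groups carried the alleles and the tumour, and both received tamoxifen (2 mg per 20 g on 5 days, days 3 to 7) and lung radiation of 4 Gy on 3 days, days 10 to 12. Anti-PD-1 antibody (250 µg per mouse, day 6) is named in the treatment protocol without a group. Viable CD45-positive lung cells were sorted 24 to 48 h after radiation, and each group of 4 mice gave 1 10x Genomics 3′ library. No label ties a cell to a mouse, and the labels state neither age nor sex. Exposure to the toxin and loss of club cells cannot be told apart, since the DT group had both.

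Neutrophils are short-lived granulocytes that leave the marrow with their granule proteins already made. In inflamed tissue and in tumours they can change state, making chemokines and cytokines through NF-kB and AP-1, the transcription factors that follow Toll-like, IL-1 and TNF receptor signals, and living longer. In mouse lung tumours a Siglecf-high state of this kind has been described, and its cells lose markers of freshly released neutrophils such as Ly6g and Retnlg. Ccl3 and Ccl4 are chemokines that draw macrophages and T cells, Il1a and Tnf encode alarm cytokines, Ccrl2 is a chemerin-binding receptor that lacks chemokine signalling, and Siglecf is a sialic acid-binding lectin best known from eosinophils.

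With 1 library per group no test between DT and PBS was possible, and no value below is a test. Levels are unique molecular identifiers (UMIs) summed over the cells of a group and scaled to a total of 1000000 per group (counts per 1000000, CPM). Log2 ratios were formed after 5 CPM were added to both sides, plain ratios without that addition, and all intervals are exact 95% intervals for counting error only, which say nothing about differences between mice. A gene is called tested where it had enough UMIs to be read against a fold limit. The activated neutrophils held 1084132 UMIs in DT and 553354 in PBS, and their median depth was 2082 UMIs per cell in DT and 2213 in PBS, against 1861 and 2048 in the other neutrophils. The 2 libraries shared 8 barcodes, of which 1 PBS barcode and no DT barcode lay among the activated cells. The libraries also differed in sex, read in each cell as a UMI of Xist (female) or of any of 4 Y-linked genes (male): male-called cells were 31.9% of the called cells in DT against 87.2% in PBS. Among activated neutrophils the male-called share was 56.8% in DT (45.3 to 67.8, 81 called cells) against 96.0% in PBS (88.8 to 99.2, 75 called cells). Among the other neutrophils it was 82.2% in DT (74.5 to 88.3) and 98.1% in PBS (93.2 to 99.8). The 2 parts of the DT gate thus differed in sex calls as well. Most activated cells held RNA of none of these genes and had no call, 331 in DT and 117 in PBS. Sex and treatment could be separated only within male-called cells (46 activated in DT and 72 in PBS), since only 3 PBS activated cells were female-called.

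The 6 activation genes chose these cells, so their levels are given as a description. Ccrl2 (chromosome 9, 111054486 to 111057519 on GRCm38, minus strand) was the most widely seen, in 91.9% of activated cells in DT and 91.2% in PBS, and it was also seen in 41.9% and 34.3% of the other neutrophils. Ccl3 was seen in 56.0% of DT and 61.7% of PBS activated cells, and its neighbour on chromosome 11, Ccl4, in 43.8% and 48.2%. Tnf was seen in 49.3% of DT and 44.6% of PBS activated cells, Il1a in 30.6% and 33.7%, and Siglecf (chromosome 7, 43351341 to 43359531) in 26.3% and 20.2%. Siglecf was therefore the least often seen marker, and most activated cells carried no UMI of it. Positive cells held many UMIs of Ccl3, with a mean of 11.8 per positive activated cell in DT and 12.5 in PBS, whereas for Siglecf, with few UMIs per positive cell, the mean was 1.45 and 1.67. Between the libraries the summed level of Il1a was 435 CPM in DT against 636 CPM in PBS activated cells (ratio interval 0.595 to 0.788). Tnf was 548 CPM in DT against 457 CPM in PBS (1.03 to 1.39). Ccl3, Ccl4 and Ccrl2 lay closer together, at log2 DT over PBS of -0.075, 0.082 and 0.037.

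The most frequent combination in DT was Tnf with Ccrl2 alone, 15.1% of DT activated cells against 7.25% of PBS activated cells (63 and 14 cells). In PBS it was Ccl3 with Ccrl2, 6.70% of DT and 9.84% of PBS activated cells, followed by Ccl3, Ccl4 and Ccrl2 together at 10.0% and 9.33%. Free RNA in droplets can also give such UMIs, so B cells, which should lack most of these genes, were read with the same 6 genes. B cells were cells with Cd79a, without Cd3e, Csf1r or C1qb, and with fewer neutrophil genes than the gate requires. The last condition left out B cell droplets with many neutrophil genes, so the B cell shares can understate the background from free RNA. At least 2 of the 6 were seen in 0.373% of 1071 DT B cells and 0.292% of 1369 PBS B cells, although their median depth was higher (2425 UMIs in DT and 2820.0 in PBS, against 1910.0 and 2093 in the gate). Ccrl2 alone was seen in 2.05% of DT and 1.97% of PBS B cells.

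The neutrophil genes of the gate differed inside it, again as a description. Retnlg, a resistin-like protein of freshly released neutrophils, was seen in 41.4% of activated against 81.3% of other neutrophils in DT and in 48.7% against 90.7% in PBS. S100a8, a subunit of calprotectin, stood at 23752 CPM in activated against 47697 CPM in other neutrophils of DT and at 32912 against 56299.5 CPM in PBS. Il1r2, the decoy receptor for IL-1, went the other way, at 2068 against 1480.2 CPM in DT and 1823 against 1131 CPM in PBS. Csf3r, the receptor for the neutrophil growth factor G-CSF, was seen in 93.5% of DT and 95.9% of PBS activated cells. The gate required such genes, so they do not check the label, and the label as tumour-type cannot be checked here, since no library of tumour-free lung was analysed.

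Activated cells made up a larger share of the gate in DT than in PBS when all cells were counted. The share was 40.6% in DT (37.6 to 43.7) against 32.8% in PBS (29.0 to 36.7), a ratio of 1.24 (1.04 to 1.48). Within male-called cells the order was the other way round: 46 of 152 gate cells were activated in DT (30.3%, 23.1 to 38.2) against 72 of 174 in PBS (41.4%, 34.0 to 49.1), a ratio of 0.731 (0.494 to 1.07). Female-called gate cells were 35 activated of 58 in DT (60.3%, 46.6 to 73.0) and 3 of 5 in PBS. Cells without a call gave 41.1% in DT and 28.8% in PBS. The higher share in DT was therefore not seen within male-called cells, and the part of sex in it cannot be told apart from the treatment. Of all cells, activated neutrophils were 6.74% in DT against 3.38% in PBS, a ratio of 1.99 (1.67 to 2.37), while the other neutrophils were 9.85% against 6.94% (ratio 1.42, 1.25 to 1.61).

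The number of activation genes per cell ran without a gap across the limit of 2. Just inside it, cells with exactly 2 genes were 17.7% of the gate in DT and 13.6% in PBS (182 and 80 cells), and just outside it, cells with exactly 1 gene were 33.3% and 33.4% (343 and 197 cells). Cells with none were 26.0% in DT against 33.8% in PBS. Among the activated cells themselves, 28.2% in DT and 29.0% in PBS had at least 4 genes (ratio interval 0.702 to 1.36). All 6 genes were seen in 14 DT cells and 1 PBS cell. When every cell was thinned to 1000 UMIs, which left out 616 DT and 253 PBS cells of lower depth and also thinned the exclusion genes (gate of 1158 and 709 cells), 31.6% of gate cells were activated in DT against 24.4% in PBS, a ratio of 1.30 (1.08 to 1.56). With Tnf left out of the 6 genes the ratio was 1.10 (0.916 to 1.33), the lowest of the 6 settings that left out 1 gene, with Ccrl2 left out it was 1.22 (0.980 to 1.52), and with at least 3 genes required it was 1.20 (0.951 to 1.51).

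**Figure D1:**
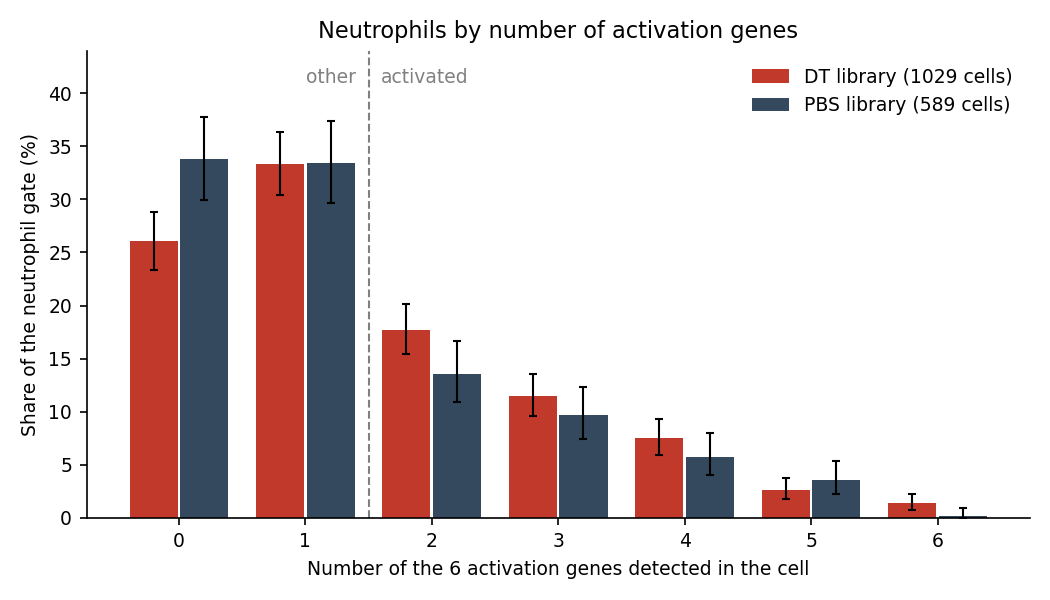
Share of the neutrophil gate (%, y axis) by the number of the 6 activation genes detected in a cell (x axis), in the DT library (1029 cells) and the PBS library (589 cells); error bars are exact 95% binomial intervals for counting error only. The shares at 0 genes are 26.0% in DT and 33.8% in PBS, the shares at 1 gene are nearly equal, and no dip separates 1 gene from 2.

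Against the other neutrophils of the same gate, activated cells carried more RNA of Bcl2a1 copies, of Gbp2, Gbp5 and other interferon-inducible genes, of Icam1 and other NF-kB genes and of Il1rn, and less of Mmp8, Ly6g and Padi4. Of 4101 genes outside the rule with at least 100 UMIs in the gate, 166 (4.05%) were at least 2-fold higher in both libraries and 11 (0.268%) at least 2-fold lower in both, after the added 5 CPM. The median over all these genes was 0.16 in DT and 0.14 in PBS (log2 activated over other). The counts and medians of gene lists below stand against these shares and medians. A trimmed-mean scaling moved all values by 0.31 in DT and 0.25 in PBS, and then 89 genes were higher and 61 lower. Genes named below that then fell under the 2-fold limit included Cxcl10, Bax, Irgm1 and Ifit3. Because the cells were divided by measured genes of the same libraries, all these values are descriptions and no test was made of them. The 2 parts of the DT gate also differed in sex calls, and the part of sex in these values was not tested. Within male-called cells, which had fewer UMIs, 54 of 1385 genes were higher and 5 lower.

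Among cytokines, chemokines and their antagonists, activated cells differed most in factors other than IL-1 beta. Il1rn (chromosome 2, 24336853 to 24351494 on GRCm38), the secreted antagonist of the IL-1 receptor, had 1425 CPM in activated against 382 CPM in other neutrophils of DT and 1191 against 277 CPM in PBS (log2 1.89 in DT and 2.09 in PBS). Il1b itself was at a like level in both parts of the gate, with 20686 CPM in activated against 22483 CPM in other neutrophils of DT and 20847 against 21646 CPM in PBS. Csf1, the growth factor of macrophages, which was chosen after its values were seen, had 697 CPM in activated against 263 CPM in other neutrophils of DT and 542 against 139 CPM in PBS. Osm, a cytokine of the IL-6 family, went the other way, with 883 CPM in activated against 1748 CPM in other neutrophils of DT and 1245 against 1926 CPM in PBS. Of 14 chemokine genes outside the rule 9 were tested, and 2 of these were higher: Cxcl1, a neutrophil attractant, with 76.6 CPM in activated against 7.16 CPM in other neutrophils of DT and 56.0 against 4.32 CPM in PBS, and Cxcl10, an interferon-inducible T cell attractant whose gene overlaps Art3 on the other strand, with 826 CPM in activated against 334 CPM in other neutrophils of DT and 773 against 71.3 CPM in PBS. The Cxcl1 level rested on few cells, since the 5 cells richest in it held 67.5% of its UMIs in DT and 74.2% in PBS activated cells. Cxcl2, the abundant neutrophil attractant of these cells, differed less, at log2 0.67 in DT and 0.71 in PBS, and Ccl6 was lower, at -0.97 in DT and -0.88 in PBS.

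The 21 NF-kB genes had a list median of 0.52 in DT and 0.60 in PBS, against 0.16 and 0.14 over all genes. Where 4.05% of all genes tested were higher, none of the 21 was lower and 6 were higher. They were Icam1, the adhesion molecule bound by leukocyte integrins (163 CPM in activated against 35.8 CPM in other neutrophils of DT and 161 against 15.1 CPM in PBS), Nfkbie, an inhibitor of NF-kB (log2 1.48 in DT and 1.73 in PBS), the signalling adapter Traf1 (1.15 in DT and 1.96 in PBS), the mitochondrial superoxide dismutase Sod2 (1.37 in DT and 1.51 in PBS), and the stress-response genes Ier3 (1.16 in DT and 1.08 in PBS) and Gadd45b (1.12 in DT and 1.55 in PBS). With trimmed-mean scaling the list median was 0.23 in DT and 0.37 in PBS, and Traf1, Ier3 and Gadd45b fell under the 2-fold limit. The NF-kB subunits themselves differed little, with Rela at 0.17 in DT and 0.21 in PBS and Nfkb1 at 0.52 in DT and -0.045 in PBS. Of the list of Siglecf-high neutrophil genes, 12 of 15 were tested and 4 of them were higher, with a median of 0.90 in DT and 1.38 in PBS. Ltc4s, which makes leukotriene C4, had 70.1 CPM in activated against 8.75 CPM in other neutrophils of DT and 66.9 against 6.48 CPM in PBS. The 5 cells richest in Ltc4s held 27.6% of its UMIs in DT and 59.5% in PBS activated cells. Clec5a, a lectin receptor of myeloid cells, had 308 CPM in activated against 80.3 CPM in other neutrophils of DT and 295 against 64.8 CPM in PBS, and Cstb, an inhibitor of cathepsins, had 612 CPM in activated against 189 CPM in other neutrophils of DT and 586 against 159.9 CPM in PBS. The list holds Icam1 too, so the 2 lists are not independent, and Cd63, a granule membrane protein of the same list, was at 0.83 in DT and 1.68 in PBS.

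Bcl2a1 copies and several interferon-inducible genes were also higher. Of 13 survival and death genes tested (of 14) 4 were higher, 3 of them near-identical copies of Bcl2a1, an anti-apoptotic Bcl-2 family gene, among which reads cannot be divided with certainty. Bcl2a1d had 1562 CPM in activated against 311 CPM in other neutrophils of DT and 1019 against 153 CPM in PBS (log2 2.31 in DT and 2.69 in PBS). Bcl2a1b was at 2.02 in DT and 2.29 in PBS, and Bcl2a1a at 2.13 in DT and 2.28 in PBS. Bax, which promotes apoptosis, was also higher, at 1.15 in DT and 1.55 in PBS, and Mcl1, the survival factor on which neutrophils depend, was at -0.12 in DT and -0.15 in PBS. Of 23 interferon-inducible genes tested (of 24) 6 were higher and none lower, with a median of 0.67 in DT and 0.88 in PBS. Gbp2, a guanylate-binding protein that acts against intracellular microbes, had 1235 CPM in activated against 434 CPM in other neutrophils of DT and 1323 against 296 CPM in PBS. Gbp5, of the same family, had 301 CPM in activated against 70.0 CPM in other neutrophils of DT and 276 against 36.7 CPM in PBS. Irgm1, Ifi47, Ifit2 and Ifit3 were the others, between 1.03 and 1.54 in DT and between 1.27 and 2.86 in PBS. Tgtp2 and Tgtp1, a pair of near-identical interferon-inducible GTPases whose genes also overlap Olfr56, were at log2 2.58 in DT and 3.43 in PBS for Tgtp2 and 2.28 in DT and 2.72 in PBS for Tgtp1.

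Cd274, which encodes PD-L1, the ligand of the receptor that anti-PD-1 blocks, had 431 CPM in activated against 126 CPM in other neutrophils of DT and 454 against 68.1 CPM in PBS (log2 1.73 in DT and 2.65 in PBS) and was the only higher gene of 12 tested in the suppressor myeloid list. Arg1 had no UMI in any gate cell, and Arg2 was at -0.69 in DT and -0.22 in PBS. Cdkn1a, the p53-inducible cell cycle inhibitor, had 1211 CPM in activated against 310.2 CPM in other neutrophils of DT and 889 against 236 CPM in PBS, and Ccng1, another p53 target, was at 1.93 in DT and 1.53 in PBS, while Xpc, a p53 target of DNA repair, was lower at -1.06 in DT and -1.36 in PBS. Itgax, which encodes the integrin CD11c, was at 1.14 in DT and 1.46 in PBS, and Bhlhe40, a repressor induced by hypoxia and activation, at 2.19 in DT and 2.10 in PBS. The 12 genes with the largest difference in both libraries also held Clec4n, the fungal receptor Dectin-2 (1089 CPM in activated against 217 CPM in other neutrophils of DT and 1017 against 99.4 CPM in PBS), Scimp, an adapter of Toll-like receptors (419 CPM in activated against 62.8 CPM in other neutrophils of DT and 390.3 against 22.7 CPM in PBS), Spp1, the secreted matrix protein osteopontin (2.42 in DT and 4.00 in PBS), and Mrpl52, a mitochondrial ribosomal protein (2.17 in DT and 2.14 in PBS). Spp1 was uneven, with 51.4% of its DT and 80.5% of its PBS activated UMIs in the 5 richest cells. The top gene, Gm14023 (3.26 in DT and 4.73 in PBS), is a noncoding transcript that overlaps Il1a on the other strand (chromosome 2, 129297370 to 129307826). Il1a is a gene of the rule, and with strand handling not stated, reads of the 2 cannot be told apart. Ccl1, a chemokine, had no UMI in other neutrophils of either library and was at least 7.73-fold higher in DT and at least 123-fold higher in PBS activated cells against a floor of 3 counts over the group, but 1 cell in each library held all of its UMIs.

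Lower in activated cells were granule and maturation genes. Of 14 granule genes tested (of 20) 12 were below 0 in both libraries and 3 were at least 2-fold lower in both, with a median of -0.98 in DT and -0.95 in PBS. Over all 4101 genes tested, 1057 were below 0 in both libraries and 11 (0.268%) at least 2-fold lower in both. Mmp8, the collagenase of specific granules, had 279 CPM in activated against 647 CPM in other neutrophils of DT and 204 against 899.9 CPM in PBS. Ly6g, the surface marker of mature mouse neutrophils, had 56.3 CPM in activated against 136 CPM in other neutrophils of DT and 61.4 against 159 CPM in PBS, and Padi4, the enzyme that citrullinates histones, was at log2 -1.38 in DT and -1.13 in PBS. Within male-called cells Ly6g was only at -0.26 in DT and at -1.01 in PBS. Mmp8 was there at -0.86 in DT and -2.53 in PBS, and Padi4 at -1.53 and -2.18. Lcn2, an iron-scavenging granule protein, was at -0.96 in DT and -1.32 in PBS. Slc2a3, a glucose transporter, had 119 CPM in activated against 299.9 CPM in other neutrophils of DT and 132 against 321 CPM in PBS, whereas Slc2a1, the other glucose transporter measured, was at 0.11 in DT and 0.032 in PBS. The remaining lower genes with the largest difference were Stfa1 and Cstdc5, stefin copies that share sequence, the kinase gene Bmx, Zfand4, Abtb1, Cpne2 and Fam129a, between -1.49 and -0.97 in DT and between -1.45 and -0.97 in PBS.

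Receptors and signalling genes among the 166 higher ones, chosen after their values were seen, included Havcr2, the checkpoint receptor TIM-3, at log2 2.46 in DT and 1.83 in PBS, and Cd80, the costimulatory ligand of CD28, at 1.06 in DT and 1.21 in PBS. Ffar2, a receptor for short-chain fatty acids, was at 2.01 in DT and 2.22 in PBS, and Tgfbr1, a TGF-beta receptor chain, at 1.76 in DT and 1.84 in PBS. Il23a, a subunit of IL-23, was at 1.69 in DT and 2.46 in PBS, and Hbegf, a ligand of the EGF receptor, at 2.08 in DT and 2.29 in PBS. Irak2, a kinase of Toll-like and IL-1 receptor signalling, was at 1.74 in DT and 2.16 in PBS, and Socs1, which holds back cytokine signalling, at 1.02 in DT and 2.45 in PBS. Tap2, a peptide transporter for MHC class I, was at 1.04 in DT and 1.41 in PBS, and Psmb10, a subunit of the immunoproteasome, at 1.80 in DT and 1.96 in PBS.

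In the other lists few genes passed the 2-fold limit in both libraries. None of 23 nuclear oxidative phosphorylation genes passed the 2-fold limit, although 19 were above 0 in both libraries (median 0.44 in DT and 0.48 in PBS). Over all 4101 genes tested, 2025 were above 0 in both libraries and 1057 below 0 in both. Of 16 immediate early genes 8 were above and 8 below 0 in both, and only Dusp2 and Maff were 2-fold higher. None of 6 NADPH oxidase genes and none of 8 heat shock genes passed. Of 16 hypoxia and glycolysis genes Bhlhe40 was higher and Slc2a3 lower, of 12 antioxidant and iron genes Prdx1 was higher (1.47 in DT and 1.16 in PBS, but -0.82 in PBS within male-called cells), and of 5 glucocorticoid-inducible genes and 9 mitochondrially encoded genes none passed. Fth1, the ferritin heavy chain and one of the most abundant transcripts, was at 0.71 in DT and 0.85 in PBS.

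**Figure D2:**
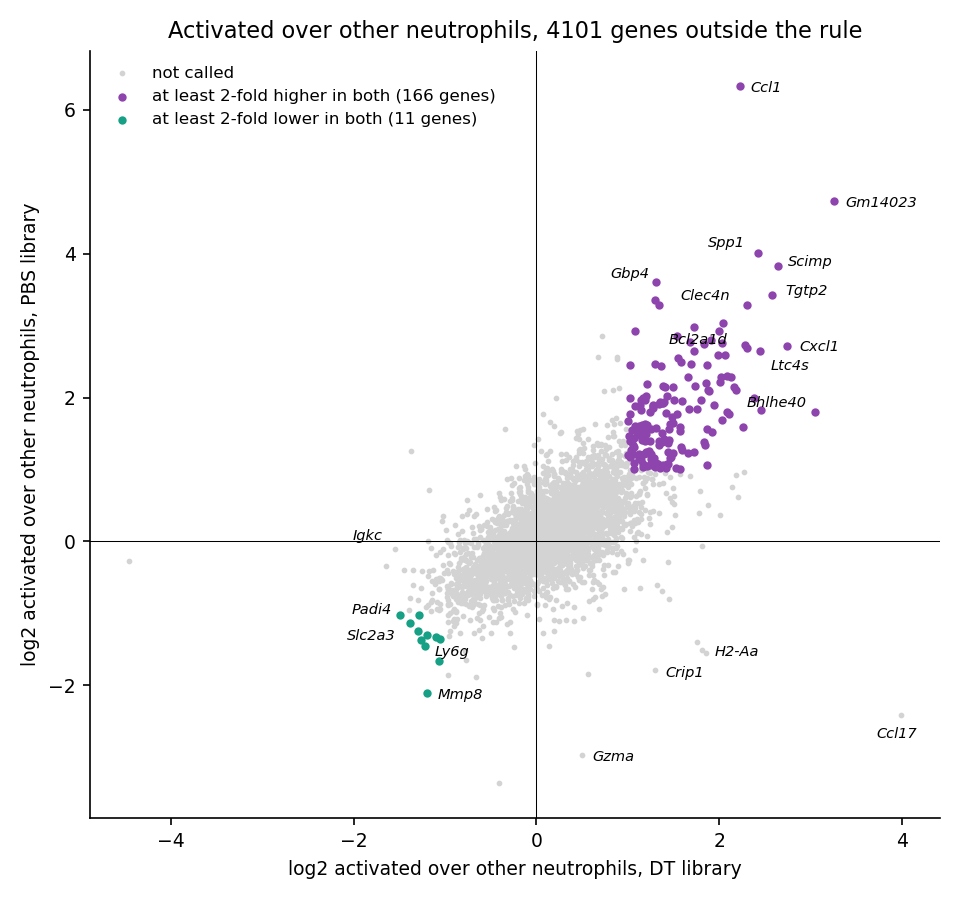
Log2 ratio of activated over other neutrophils for 4101 genes outside the rule, in the DT library (x axis) and the PBS library (y axis); each point is a gene, purple and green points are at least 2-fold higher (166) or lower (11) in both. Gm14023, Scimp, Clec4n and Bcl2a1d lie high in both libraries, Mmp8 and Slc2a3 lie low in both, and H2-Aa, Crip1 and Ccl17 are higher in DT but lower in PBS.

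Promoters of the higher genes were searched for 3 kinds of motif in the 250 bases before the start site, on both strands, with sequences from RefSeq on GRCm38.p6. Of the 166 higher genes 133 had an entry, against 3041 of the genes tested. The motifs were chosen after the gene values were seen, and a match is a description of the sequence, not a binding site. The AP-1 motif TGANTCA lay in 17.3% of the higher genes (23 of 133), against 6.35% of the genes tested and 7.82% of all 27025 promoters. The interferon response element, searched as TTTC, any 2 bases and TTTC, lay in 13.5% (18 of 133), against 4.80% and 3.46%. The κB motif, searched as GGGA, any 2 bases and TTCC, lay in 6.02% (8 of 133), against 2.04% and 1.36%. Of 5 other spellings of κB, which overlap with it, the loosest, GGG, any 2 bases and TTCC, lay in 7.52% of the higher genes against 7.76% of the genes tested. The others were GGGA, any base and TTTCC (3.01% against 0.592%), GGG, any 2 bases and TTTCC (4.51% against 2.24%), GGGAA followed by TTTCC (2.26% against 0.230%), and GGAA, any base and TTCC (5.26% against 1.61%).

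For each motif, windows of 60 bases from higher genes named above are shown on the strand of the gene, 5′ to 3′, with the motif in capitals. Cxcl1 (chr5:90891149-90891208, plus strand) and Gbp5 (chr3:142496832-142496891, plus strand) carry the κB motif, Cxcl10 (chr5:92349068-92349127, minus strand) and Tgtp2 (chr11:49064248-49064307, minus strand) the interferon response element, and Bcl2a1d (chr9:88731931-88731990, minus strand) and Il1rn (chr2:24336693-24336752, plus strand) the AP-1 motif.
Cxcl1: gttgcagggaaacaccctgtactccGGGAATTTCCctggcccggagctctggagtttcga
Gbp5: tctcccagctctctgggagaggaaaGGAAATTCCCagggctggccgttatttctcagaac
Cxcl10: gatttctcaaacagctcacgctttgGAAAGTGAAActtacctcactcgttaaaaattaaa
Tgtp2: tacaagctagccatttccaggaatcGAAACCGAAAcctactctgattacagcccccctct
Bcl2a1d: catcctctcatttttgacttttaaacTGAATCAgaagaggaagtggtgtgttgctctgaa
Il1rn: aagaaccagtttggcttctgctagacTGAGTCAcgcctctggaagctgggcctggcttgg

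Within the gate, Il1rn, Cd274 and Csf1 were higher at each step in the number of activation genes per cell, and Mmp8 and Lcn2 were lower in cells with 4 to 6 genes than in cells with 0. For cells with 0, 1, 2, 3 and 4 to 6 activation genes, Il1rn stood at 216, 503, 1131, 1599.8 and 1603 CPM in DT and 193, 352, 719, 1201 and 1733 CPM in PBS. Cd274 stood at 65.8, 171, 390.2, 421 and 477 CPM in DT and 54.6, 80.2, 304, 373 and 706 CPM in PBS. Csf1 stood at 199, 310.1, 366, 777 and 973 CPM in DT and 97.8, 177, 367, 579.7 and 711 CPM in PBS. For all 3 genes, cells with 1 activation gene lay between cells with 0 and cells with 2 in both libraries. Mmp8 stood at 767, 559.6, 471, 172 and 159 CPM in DT and 1026, 786, 237, 296 and 79.0 CPM in PBS, and Lcn2 at 1601, 1279, 1107, 498 and 498 CPM in DT and 2282, 2197, 1371, 763 and 452 CPM in PBS. Il1b was nearly level, at 20107, 24223, 21842, 22807 and 18218 CPM in DT and 20046, 23091, 22281, 21004 and 19022 CPM in PBS. Median depth was 1830.5 UMIs in DT and 1964 in PBS for cells with 0 genes, and 2458 and 2424 for cells with 4 to 6 genes, and its part in these steps was not tested.

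**Figure D3:**
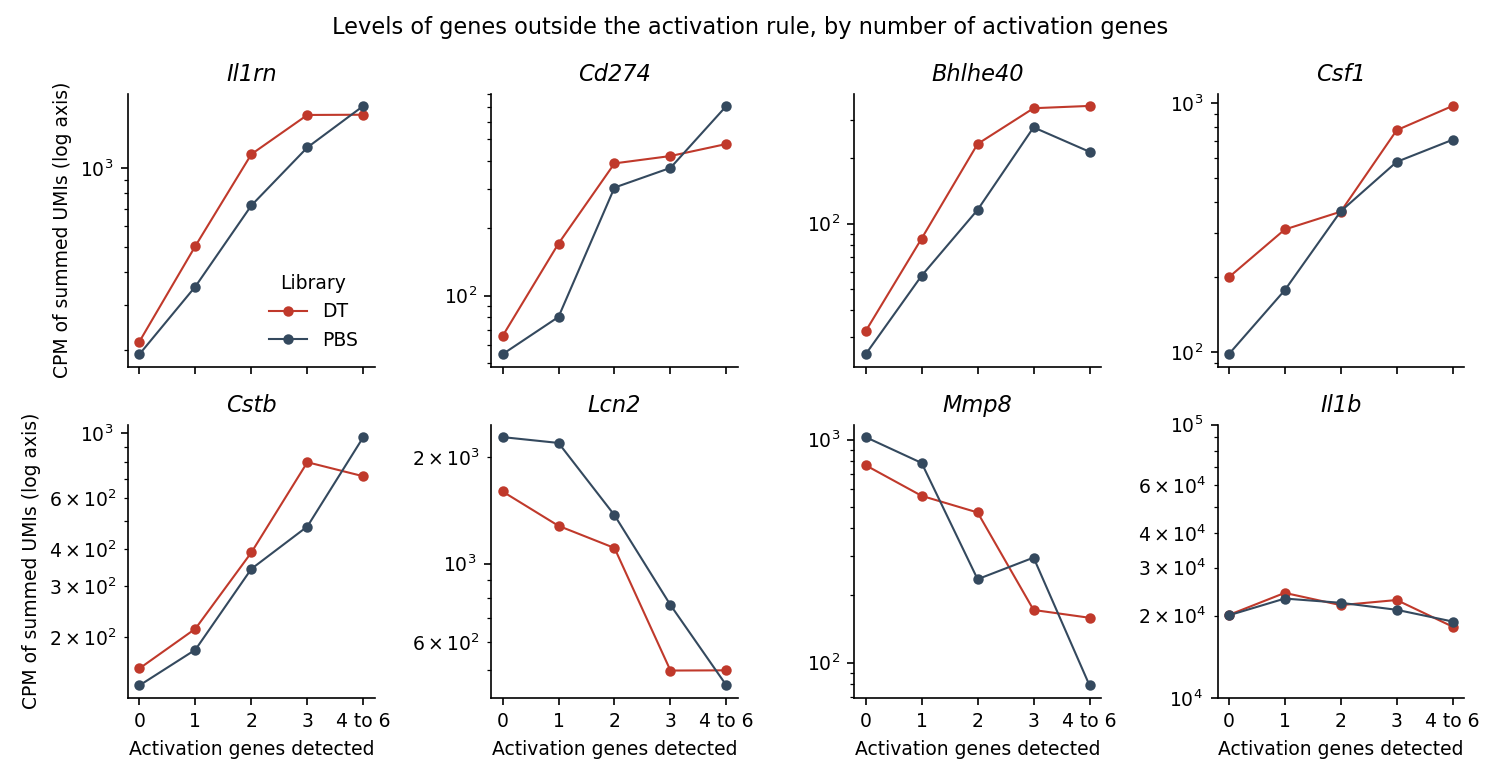
Summed level (CPM, log axis) of 8 genes outside the rule, in cells grouped by the number of activation genes detected (x axis), for the DT and the PBS library; each point is 1 sum over the cells of that group. Il1rn, Cd274, Bhlhe40, Csf1 and Cstb are higher in cells with 4 to 6 activation genes than in cells with 0, Lcn2 and Mmp8 are lower, and Il1b stays between 18218 and 24223 CPM.

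Cells in which Siglecf was seen (110 in DT and 39 in PBS) were set beside the other activated cells (308 and 154). Of 2332 genes outside the rule, 8 (0.343%) were at least 2-fold higher in the Siglecf-seen cells of both libraries with counting intervals without 1, and 6 (0.257%) were lower. Higher were Gpr171, a G protein-coupled receptor (196 against 73.8 CPM in DT and 190.2 against 23.4 CPM in PBS), Dbi, which binds acyl-CoA (125 against 41.4 CPM in DT and 158 against 42.1 CPM in PBS), the signalling inhibitor Rgs10, the nucleotide hydrolase Hint1, Ms4a6d, and the respiratory chain genes Ndufb8, Ndufb4c and Cox7b. Lower were the interferon-inducible genes Isg15 (523 against 1076 CPM in DT and 555 against 1163 CPM in PBS), Ifit1 (125 against 267 CPM in DT and 63.4 against 316 CPM in PBS) and Gbp4, the chemokine Ccl6 (584 against 1202 CPM in DT and 483 against 1274 CPM in PBS), the death receptor Fas, and Cd300lb. These 14 genes were chosen after their values were seen. Retnlg was 1538 CPM in Siglecf-seen against 4763 CPM in the other activated cells of DT, and 1973 against 4111 CPM in PBS. A cell with no Siglecf UMI may still express it, since positive cells held few UMIs, and median depth was 2138 against 2058 UMIs in DT and 2620.0 against 2146 in PBS.

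Between DT and PBS, activated neutrophils of DT held more RNA of the chemokine Cxcl3, of Mif and Egln3 and of Fkbp5, and less of Lrg1, Lyz2, Hmox1 and Gbp4. No gene of the NF-kB and interferon-inducible lists passed the limit used, against 4.93% of all genes higher and 2.35% lower. The lists do not hold every such gene, and Gbp4 is interferon-inducible but outside them. Most of the highest ratios lay in a few cells, while several of the lowest, such as that of Scgb1a1, were spread over more cells. Of 3997 genes with at least 50 UMIs in the activated cells of both libraries together, 197 (4.93%) were at least 1.5-fold higher in DT with an interval without 1, and 94 (2.35%) at least 1.5-fold lower. With trimmed-mean scaling these were 156 and 118, and with median-of-ratios scaling 151 and 120, so that the higher genes were 67.7%, 56.9% and 55.7% of those counted. In the other neutrophils 188 of 4188 genes (4.49%) were higher and 115 (2.75%) lower. Over the 3697 genes present in both comparisons, which come from the same 2 libraries, 24 were higher in DT in both parts of the gate, 14.7% of the activated and 14.8% of the other higher genes, and 13 were lower in both, 15.9% and 15.5%. When a gene was counted only if its 5 richest cells held at most 50% of its UMIs in the higher library, 175 genes were higher and 85 lower.

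Scgb1a1, the club cell product and the check of the toxin, gave 1 UMI in DT and 49 UMIs in PBS activated neutrophils (0.922 CPM in DT against 88.6 CPM in PBS, ratio interval 0.000259 to 0.0608). It was seen in 0.239% of DT and 16.1% of PBS activated cells, and in the other neutrophils it had no UMI in DT and 62 in PBS, at least 28.1-fold higher in PBS. It is known as a product of airway epithelium, and how its UMIs came into neutrophil droplets was not tested. Igkc, the kappa light chain of B cells, was likewise lower, at 20.3 CPM in DT against 90.4 CPM in PBS (log2 -1.91, ratio interval 0.130 to 0.378).

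Chemokine genes were higher in DT: 5 of 9 tested passed, against 197 of all 3997 genes (4.93%), and none was lower. The list median was 0.70 in activated and 0.38 in other neutrophils, against 0.053 and 0.056 over all genes. After thinning the list median was 0.24 in activated and 0.65 in other neutrophils. Cxcl3, a neutrophil attractant, had 762 CPM in DT against 466 CPM in PBS (log2 0.70, ratio interval 1.42 to 1.89) and 729 against 293 CPM in the other neutrophils. Ccl5, which draws T cells and monocytes, had 387 CPM in DT against 139 CPM in PBS (log2 1.44, ratio interval 2.18 to 3.60), and Cxcl9, an interferon-gamma-inducible T cell attractant, had 274 CPM in DT against 128 CPM in PBS (log2 1.07, ratio interval 1.64 to 2.81). Ccl2, the monocyte attractant, had 57.2 CPM in DT against 23.5 CPM in PBS (log2 1.13, ratio interval 1.32 to 4.83). Ccl17, an attractant made by dendritic cells, had 122 UMIs in DT and none in PBS, at least 20.8-fold higher, but 4 cells held all of its DT UMIs. The direction within male-called cells differed between these genes, at log2 0.27 for Cxcl3, 1.78 for Cxcl9 and 0.97 for Ccl2, but -1.32 for Ccl5. The list median within male-called cells was 0.16 in activated and 0.47 in other neutrophils. Cxcl9 depended on depth, at -1.21 after thinning and 0.35 with equal weight per cell, while Cxcl3 was at 0.52 and 0.71. Cxcl2, which did not pass the 1.5-fold limit, had 20228 CPM in DT against 14324 CPM in PBS (log2 0.50, ratio interval 1.38 to 1.45).

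Of 16 hypoxia and glycolysis genes tested (of 22) 5 were higher in DT and none lower, with a median of 0.25 in activated and -0.0034 in other neutrophils. Of all 3997 genes tested, 4.93% were higher and 2.35% lower in activated cells. Within male-called cells the medians of the hypoxia and glycolysis list lay close together, at 0.21 in activated and 0.18 in other neutrophils. The median of this list in other neutrophils changed its side of 0 in 4 of 16 settings. Mif, a cytokine induced by hypoxia, had 218 CPM in DT against 66.9 CPM in PBS (log2 1.63, ratio interval 2.29 to 4.74) and 74.0 against 37.8 CPM in the other neutrophils. It was seen in 29.9% of DT and 14.0% of PBS activated cells, so the difference was spread over many cells. Egln3, an oxygen-sensing hydroxylase, had 102 CPM in DT against 45.2 CPM in PBS (log2 1.10, ratio interval 1.46 to 3.65), and Hk2, the first enzyme of glycolysis, had 69.2 CPM in DT against 36.1 CPM in PBS (log2 0.85, ratio interval 1.16 to 3.31). Bhlhe40 and the glycolytic enzyme Tpi1 were at 0.61 and 0.80. Within male-called cells Mif was at 0.67, Egln3 at 1.34, Hk2 at 0.72 and Bhlhe40 at 0.19, while Tpi1 was at -0.52. Of 5 glucocorticoid-inducible genes 2 were higher: Fkbp5, a chaperone of the glucocorticoid receptor (184 CPM in DT against 88.6 CPM in PBS, log2 1.01, ratio interval 1.51 to 2.89), and the transcription factor Klf9 (47.0 CPM in DT against 16.3 CPM in PBS, log2 1.29, ratio interval 1.41 to 6.68). Fkbp5 differed as much in the other neutrophils, at 1.01, and within male-called activated cells it was at 1.20 and Klf9 at 2.06.

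Among the genes whose 5 richest cells held at most 50% of their UMIs, chosen after their values were seen, the higher ones with the largest log2 ratio included Rgs1, a brake on G protein signalling (1.92), the phosphomevalonate kinase Pmvk (1.76), Ccdc86 (1.73), the translocon subunit Sec61a1 (1.47), the kinase Map3k2 (1.43), the actin regulator Enah (1.40), Gadd45g (1.37) and Fam162a, a hypoxia-induced mitochondrial protein (1.33). Most had few UMIs in PBS, such as 5 of Pmvk and 8 of Sec61a1, and wide intervals (1.87 to 15.1 for Pmvk). Rgs1 was near that limit, with 48.7% of its DT UMIs in 5 cells, and after thinning it was at log2 0.16. Id2, a repressor of differentiation, had more UMIs behind it, at 438 CPM in DT against 204 CPM in PBS (log2 1.08, ratio interval 1.74 to 2.66), and it was seen in 41.9% of DT and 23.3% of PBS activated cells. Xist was higher (2.19) and the Y-linked Eif2s3y and Ddx3y lower (-1.73 and -1.18), beside the difference in sex calls given above.

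Lower in DT activated neutrophils were Lrg1, Lyz2 and 2 antioxidant genes, among others. Lrg1, a secreted acute-phase glycoprotein of neutrophil granules, had 409.5 CPM in DT against 882 CPM in PBS (log2 -1.10, ratio interval 0.407 to 0.529), 814 against 1506 CPM in the other neutrophils, and log2 -0.98 within male-called cells. Lyz2, lysozyme, had 1178 CPM in DT against 2087 CPM in PBS (log2 -0.82, ratio interval 0.521 to 0.612), with -0.13 within male-called cells. Hmox1, the haem-degrading enzyme induced by oxidative stress, had 60.9 CPM in DT against 123 CPM in PBS (log2 -0.96, ratio interval 0.348 to 0.706), and Gclm, a subunit of the enzyme that starts glutathione synthesis, had 38.7 CPM in DT against 75.9 CPM in PBS (log2 -0.89, ratio interval 0.325 to 0.802). Within male-called cells Hmox1 was at -0.13 and Gclm at -0.47. They were 2 of 12 antioxidant and iron genes, against 2.35% of all genes tested, and none was higher. Gbp4, an interferon-inducible GTPase that overlaps Gbp8 and Gbp9, had 52.6 CPM in DT against 161 CPM in PBS (log2 -1.53, ratio interval 0.230 to 0.461) in activated cells but 18.3 against 8.64 CPM in the other neutrophils, and was at -1.94 within male-called activated cells. Mrgpra2b and Mrgpra2a, near-identical receptors of the Mas-related family between which reads cannot be divided with certainty, were at -1.70 and -1.41, and Lbr, a lamin receptor needed for the lobed neutrophil nucleus, was at -1.36 with 35.1 CPM in DT against 97.6 CPM in PBS. G6pdx, which makes NADPH, was at -1.21. Heat shock genes split, with Hsp90aa1 at 0.68 and Dnaja1 at -0.89. Of 9 mitochondrially encoded genes, 8 were below 0 and mt-Nd2 passed (-0.78), with a median of -0.37 in activated and -0.53 in other neutrophils. Over all 3997 genes tested, 1743 were below 0 in activated cells.

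None of 21 NF-kB genes, 23 interferon-inducible genes, 14 trafficking receptor genes or 12 suppressor myeloid genes passed the 1.5-fold limit in either direction. Of all genes tested, 4.93% were higher and 2.35% lower. Gbp4, interferon-inducible but outside these lists, was lower, as given above. The NF-kB median was 0.021 in activated and 0.32 in other neutrophils, and that of the Siglecf-high list, in which only Lgals3 passed (0.68, but -0.16 after thinning), was 0.063 and 0.27. Of the interferon-inducible genes 19 of 23 were below 0 in activated cells, at a median of -0.14, against 0.12 in other neutrophils. Over all 3997 genes tested, 1743 were below 0 in activated cells. Within male-called cells the medians in activated and other neutrophils were -0.15 and -0.093 for NF-kB, -0.046 and -0.086 for the Siglecf-high list and -0.41 and -0.68 for interferon, so that the higher medians of the other neutrophils in DT were not seen there. Il1rn was at 0.26 (ratio interval 1.09 to 1.31; -0.43 in male-called cells), Cd274 at -0.074 (0.813 to 1.11), Icam1 at 0.021 and Il1b at -0.011. Bcl2a1d was the 1 survival gene of 13 that passed, with 1562 CPM in DT against 1019 CPM in PBS (log2 0.61, ratio interval 1.39 to 1.69), 311 against 153 CPM in other neutrophils and log2 0.78 within male-called cells.

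**Figure D4:**
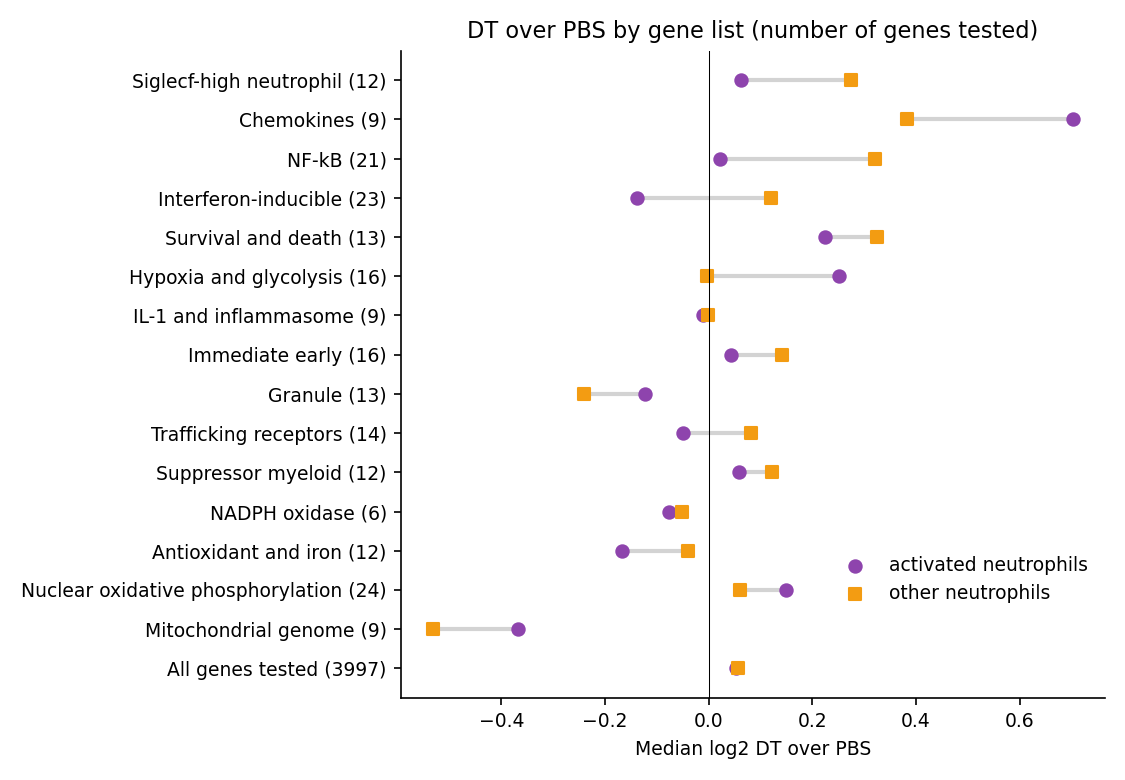
Median log2 DT over PBS (x axis) of each gene list, with the number of genes tested in brackets, in activated neutrophils (circles) and in the other neutrophils of the gate (squares). Chemokines lie at 0.70 in activated and 0.38 in other neutrophils, NF-kB genes at 0.021 in activated and 0.32 in other neutrophils, and mitochondrially encoded genes below 0 in both.

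Most of the highest ratios of DT over PBS, and some of the lowest, lay in single cells or small groups of cells. Others of the lowest were spread more widely, with UMIs of Scgb1a1, Igkc and Lbr in 16.1%, 18.1% and 23.8% of PBS activated cells. MHC class II genes, which dendritic cells, macrophages and B cells use to present antigen, were higher in DT: H2-Ab1 had 583 CPM in DT against 83.1 CPM in PBS (log2 2.74, ratio interval 5.19 to 9.68), and H2-Aa and H2-Eb1 were at 2.69 and 2.85. Cells with at least 5 UMIs of these genes and Cd74 together were 18 of 418 in DT (4.31%) and 16 of 193 in PBS (8.29%), with a median depth of 4563 UMIs in DT and 3958 in PBS. The 18 DT cells held 93.9% of the H2-Aa UMIs of DT activated cells, 99.2% of Ccl17, 97.6% of Dnase1l3, a secreted DNase, 86.1% of Ifi205, an interferon-inducible DNA sensor, and 77.7% of Crip1. They also held every UMI of Flt3 and Zbtb46, defining genes of dendritic cells, in DT activated cells. Without cells of this kind in either library H2-Ab1 was at -0.34, H2-Aa at -0.052, Dnase1l3 at -0.65 and Ifi205 at -0.49. H2-Ab1 was at 2.33 without the cells of highest doublet score and at 0.27 after thinning, and whether these droplets held more than 1 cell was not tested. Gzma, a granzyme of T and NK cells (4.00), Chil3, a chitinase-like protein (1.55), Klk1 (-3.37) and Saa3, a serum amyloid protein (-2.42), each had at least 74.9% of their UMIs of the higher library in 5 cells. Ccl1 (-4.11) was held by 1 cell in each library, and Spp1 (-1.19) had 80.5% of its PBS UMIs in 5 cells.

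RNA of other cell types was read in the same way. The 8 dendritic cell genes summed to 1111 CPM in DT activated and 204 CPM in PBS activated cells, with 89.0% and 52.2% of these UMIs in the 5 richest cells, against 352 and 536 CPM in other neutrophils. The 9 macrophage genes summed to 265 and 233 CPM in activated cells of DT and PBS, and 1 and 2 of the 9 were at 0. The 8 monocyte genes summed to 220.5 and 267 CPM, the 8 T and NK cell genes to 303 and 132 CPM (83.9% and 80.8% in 5 cells), and the 8 alveolar macrophage genes to 27.7 and 5.42 CPM. Eosinophils also carry Siglecf, and 5 of 7 eosinophil genes were measured. Their RNA was low, summing to 18.4 CPM in DT and 18.1 CPM in PBS activated cells, against 7.95 and 3.24 CPM in other neutrophils. Any of the 5 was seen in 2.63% of DT and 4.66% of PBS activated cells, against 1.64% and 0.758% of other neutrophils. Prg2, Il5ra and Alox15 were at 0 in activated cells of both libraries. The 4 basophil and mast cell genes measured summed to 1.84 and 3.61 CPM with 3 at 0, the 8 B cell genes, which hold Cd74 beside Igkc, to 1719 and 867 CPM (76.7% and 39.6% in 5 cells), and the 3 club cell genes measured to 0.922 and 105 CPM. The part of such cells in the differences above, beyond the values given, was not tested.

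Activated neutrophils held a large part of the lung leukocyte RNA of several inflammatory genes. They gave 3.89% in DT and 1.78% in PBS of all UMIs. Of the genes outside the rule, Csf1 had 34.1% in DT (32.2 to 36.1) and 23.8% in PBS (21.5 to 26.2) of its UMIs in these cells, Cxcl2 29.4% in DT (29.1 to 29.7) and 21.2% in PBS (20.8 to 21.6), and Il1rn 26.3% in DT (25.1 to 27.4) and 14.9% in PBS (13.8 to 15.9). Ptgs2, the inducible prostaglandin synthase, had 24.7% in DT and 19.4% in PBS, Cxcl3 24.8% in DT and 21.1% in PBS, Il1b 21.6% in DT and 15.6% in PBS and Cd274 14.5% in DT and 10.1% in PBS. The other neutrophils, with 4.51% in DT and 2.98% in PBS of all UMIs, held 27.2% of Il1b in DT and 27.1% in PBS. They held 27.6% and 22.2% of Cxcl3, 21.4% and 21.6% of Cxcl2 and 21.8% and 17.8% of Ptgs2. For Csf1 they held 14.9% and 10.2%, for Il1rn 8.16% and 5.77% and for Cd274 4.95% and 2.53%. Detection of the 6 activation genes put cells in the activated group and so raised their shares there, which are given as a description. These shares were 36.6% in DT (34.0 to 39.3) and 46.6% in PBS (43.0 to 50.3) for Il1a, 42.0% in DT (37.0 to 47.1) and 22.2% in PBS (17.6 to 27.4) for Siglecf and 20.7% in DT and 9.94% in PBS for Ccl4. Among the 6 activation genes, only Il1a had a lower share in DT than in PBS, and outside the rule Spp1 was at 1.59% in DT and 3.04% in PBS and Cxcl1 at 26.5% in DT and 29.2% in PBS. None of 1877 Arg1 UMIs in DT and 601 in PBS, and none of 206 and 45 Il6 UMIs, lay in activated neutrophils. These shares depend on how many cells of each type a library holds, and activated neutrophils were a larger share of the DT cells.

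**Figure D5:**
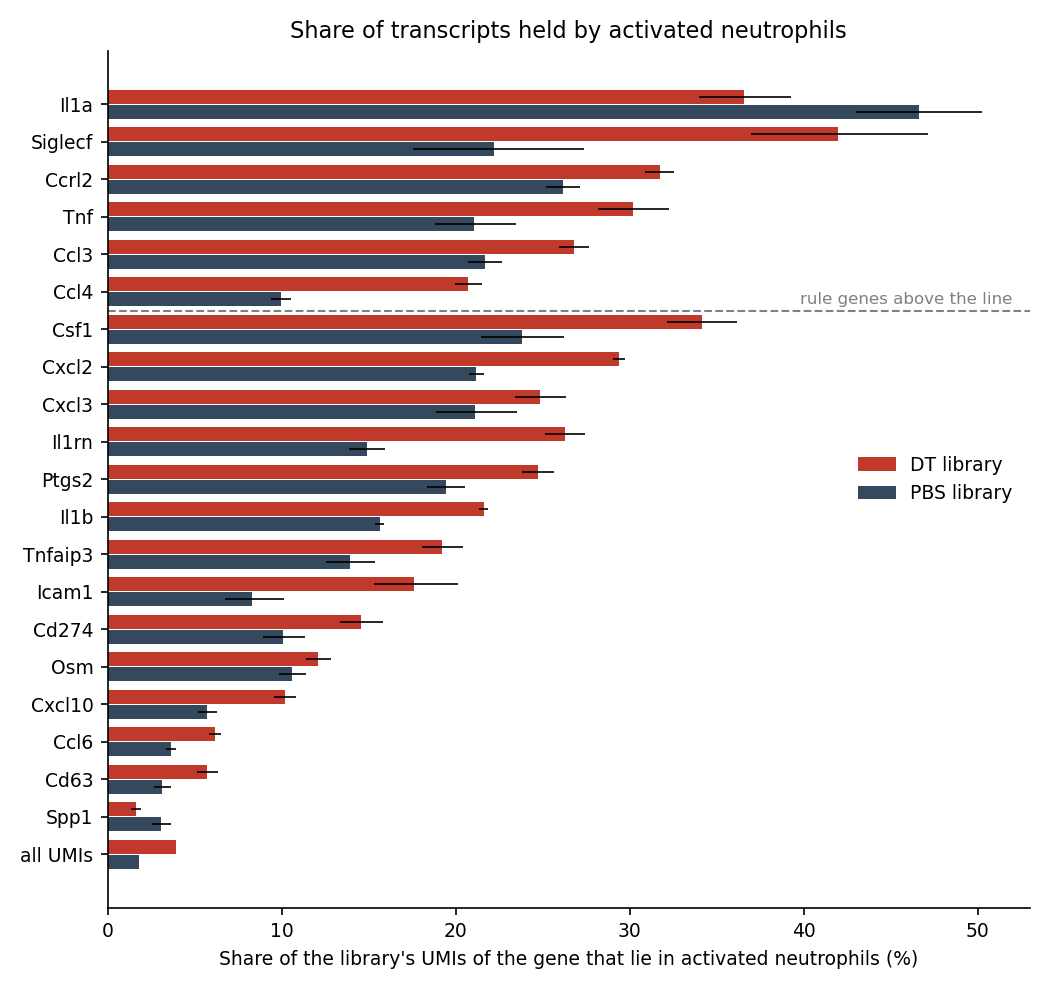
Share of each library's UMIs of a gene that lay in activated neutrophils (%, x axis), for the DT and the PBS library; error bars are exact 95% binomial intervals for counting error only, and genes above the dashed line belong to the rule. Csf1 at 34.1% in DT and 23.8% in PBS lies far above the share of all UMIs, which is 3.89% in DT and 1.78% in PBS.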

How the data were processed

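The authors deposited 1 table per library with log2 values, log2(CPM + 1) per cell and gene by the values themselves, for 16184 genes. Partek, STAR, Seurat and mm10 are named in the submitters' processing notes, without roles or versions. Cell filters, annotation and strand handling are not stated there. Counts had been planned for, so UMIs were recovered by undoing the log and dividing each cell by its smallest step, and 100% of the values above 0 were whole within 1%. These recovered UMIs (27896059 in DT and 31089434 in PBS) entered every comparison, and an alternative used averages of the deposited log2 values. UMIs were summed per library and part of the gate. Intervals are exact, Clopper-Pearson for shares and conditional binomial for ratios, at 95%. No test between groups was run.

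Genes named were the 12 highest and 12 lowest for activated over other neutrophils (at least 100 UMIs over the gate, 50 CPM and intervals without 1 in both libraries, ranked by the smaller log2 ratio) and for DT over PBS (at least 50 UMIs, 50 CPM, a 1.5-fold ratio and an interval that leaves out 1), besides members of 27 gene lists and 4 lists of the rule and sex genes. Genes named outside this rule are said to have been chosen after their values were seen. The members and lists were chosen with earlier results of these data known. Genes were matched to GENCODE vM21 coordinates on GRCm38 and to RefSeq promoters. Doublets were kept: Scrublet, run in scanpy 1.11.5 at an expected rate of 6%, marked 0 of 6203 DT and 2 of 5702 PBS cells and had not worked, so only its scores were used, in an alternative. Steps ran in Python 3.11.15 with numpy 2.4.6, scipy 1.17.1, pandas 2.3.3 and matplotlib 3.10.9, and were tested on simulated data. Alternatives varied cell filters, the number and choice of activation genes, depth, doublets, exclusion genes, sex, scaling, added CPM, the UMI minimum and the weight of cells. Those on MHC class II cells, very deep cells, female-called cells and uneven genes were added after seeing the data.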

Additional observations from a re-analysis of the deposited data

Results flagged for a closer look

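Several genes had opposite directions in the 2 libraries or in the 2 parts of the gate, with counting intervals without 1 on both sides; none of these differences was tested, since cells are not replicates. For activated over other neutrophils, H2-Aa was at 1.81 in DT and -1.51 in PBS, H2-Ab1 at 1.86 and -1.55, H2-Eb1 at 1.76 and -1.40, Crip1, a LIM protein, at 1.30 and -1.79, Ccl17 at 3.99 and -2.41, Rgs1 at 1.45 and -0.81, Gzma at 0.50 and -2.97, and the Y-linked Eif2s3y at -1.17 and 0.71 (log2). For DT over PBS, H2-Aa was at 2.69 in activated and -0.63 in other neutrophils, H2-Ab1 at 2.74 and -0.67, H2-Eb1 at 2.85 and -0.31, Crip1 at 1.96 and -1.13, and Ccl17 at 4.55 and -1.85, where the first value rests on the added 5 CPM because Ccl17 had no UMI in PBS activated cells, and the bound is at least 20.8-fold. Mmp8 was at 0.44 in activated and -0.47 in other neutrophils, though at -0.13 in activated cells after thinning, and Gm14023, the noncoding transcript over Il1a, at -0.32 and 1.15.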

How the results depend on the processing

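With 1 library per group the precision is set by counting alone, and genes under 100 UMIs over the gate, or under 50 in activated cells for DT over PBS, were not read. No paired analysis was possible because each group is 1 library. The share ratio of activated cells lay between 1.10 and 1.30 in all settings except 2: it reversed to 0.731 in male-called cells and was 1.01 in female-called cells. Genes higher in activated over other neutrophils in both libraries numbered 87 after thinning, 54 in male-called cells, 89 with trimmed-mean scaling, 98 with 20 CPM added, and 277 and 97 with minima of 20 and 200 UMIs. The lower ones numbered 44 with at least 3 activation genes, 25 after thinning, 18 without the highest doublet scores, 23 with stricter exclusion genes, 5 in male-called cells, 29 and 61 with median-of-ratios and trimmed-mean scaling, 21 and 4 with 1 and 20 CPM added, 21 with a minimum of 20 UMIs, 36 with equal weight per cell and 21 without the deepest cells. Genes higher in DT activated cells numbered 122 with at least 3 activation genes, 55 after thinning, 67 in male-called cells, 324 and 30 with minima of 20 and 200 UMIs and 122 without the deepest cells, and the lower ones 52, 56, 55, 155 and 16 after thinning, in male-called cells, with 20 CPM added and with those minima. Means of the log2 values gave no counts. Of 78 values 70 never reversed. The 78 were those of genes named by rank and the DT over PBS values of the 6 activation genes, for which no reversal could be counted. The 8 that reversed were all DT over PBS values of genes named by rank. For DT over PBS, reversals among these were Ifi205 at -0.73 and Chil3 at -0.10 after thinning, Gzma at -0.26 without high doublet scores and -0.86 in male-called cells, Dnase1l3 at -0.74 with stricter exclusion, and Ifi205 at -0.084 with equal weight. With log2 means H2-Eb1 was at -0.062, Dnase1l3 at -0.067, H2-Ab1 at -0.29, H2-Aa at -0.23 and Ifi205 at -0.064. Without MHC class II cells Dnase1l3 was at -0.65, H2-Ab1 at -0.34, H2-Aa at -0.052 and Ifi205 at -0.49, and without the deepest cells Dnase1l3 was at -0.49 and Ifi205 at -0.041. Ccl1 was at 1.90 after thinning and 2.37 without MHC class II cells. Among list genes, Cxcl9 was at -1.21, Lgals3 at -0.16 and Mmp8 at -0.13 after thinning, and Ccl5 at -1.32 and Tpi1 at -0.52 in male-called cells. The cause was not tested in any of these. For activated over other neutrophils, the list medians of NF-kB, interferon, Siglecf-high, chemokine, survival, granule and nuclear oxidative phosphorylation genes kept their side of 0 in all 16 settings, while for DT over PBS in activated cells the NF-kB median changed side in 7 and the Siglecf-high median in 6.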
